A study of Homo sapiens with 6 samples.

Results

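The BCL2 family decides whether the outer membrane of mitochondria stays closed or opens during apoptosis. Guardians (BCL2, BCL2L1, BCL2L2 and MCL1) hold pro-apoptotic relatives in check, effectors (BAX and BAK1) form the pores through which cytochrome c leaves, and BH3-only proteins (BID, BCL2L11, BBC3 and PMAIP1) relay stress signals by binding guardians, effectors or both. The balance is set by amounts and pairings of proteins, and transcription of the BH3-only genes is one of its best-known controls. In clear cell renal carcinoma, loss of VHL stabilizes the hypoxia-inducible factors (HIF), transcription factors with several family relatives among their known targets. The 10 members were taken by gene symbol from a table of read counts. Each symbol matched 1 row, so 10 of 60708 genes were members, and all 10 were among the 17401 genes tested, those that reached 10 reads in 1 or more samples.

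RNA was sequenced from 6 samples of Caki-1, an established human clear cell renal carcinoma line. The 3 VC samples are of WT genotype and were infected with the lentiviral CRISPR vector only, and the 3 VHL-KO samples are of VHL-knockout genotype and were infected with the same kind of virus encoding sgRNA-VHL. Infected cells were selected with puromycin, and the knockout lines are described as clonal, but whether the 3 VHL-KO samples came from 1 clone or several is not stated. Nor is it stated that the VC cells were cloned, so loss of VHL and differences between clones cannot be told apart here. Depth, as reads assigned to genes, ranged from 22628246 to 34881739 per sample. No source states that the samples of a group were separate cultures, so p-values measure the spread between these samples, which may be technical.

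VHL, the edited gene, was checked first. Its row held 1454, 1124 and 1522 reads across VC replicates 1 to 3 and 929, 657 and 650 across those of VHL-KO, so its transcript was present in both groups. Another annotated gene lies opposite 23.5% of the exonic bases of VHL. Its log2 fold change was -0.33 ± 0.11 (SE; edgeR quasi-likelihood test, Benjamini-Hochberg adjusted p = 0.0109), and the call was lost in 5 of 15 alternative settings, among them GC and length offsets (-0.17, adjusted p = 0.0784) and upper quartile factors (-0.22, adjusted p = 0.0905). Single samples among these settings were VC replicate 1 (-0.28 without it, adjusted p = 0.0862) and VHL-KO replicate 2 (-0.30, adjusted p = 0.0621). Counts of a transcript do not show whether an edited gene still makes protein. The authors report that they screened VHL-knockout Caki-1 clones by immunoblot and verified the knockout. Among HIF targets, CA9 reached 288, 247 and 233 reads in the VHL-KO samples against 0, 0 and 2 in VC, with 35.7% of its exonic bases opposite ARHGEF39. NDRG1 was higher by 6.03 ± 0.11 and VEGFA by 2.48 ± 0.11 on the log2 scale (SE), while EGLN3, also a HIF target, was lower (-1.26 ± 0.35, adjusted p = 0.00337).

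Of the genes listed as markers of renal epithelium, PAX8 lay at 384 to 629 CPM (counts-per-million of the library size scaled by TMM factors), KRT8 at 597 to 967 CPM and KRT18 at 359 to 562 CPM over the 6 samples. PAX2 had 0 counts throughout, and EPCAM had 56 or fewer. PAX8 (0.52), KRT8 (0.51) and KRT18 (0.37) were higher in VHL-KO cells on the log2 scale and EPCAM was lower (-1.42, adjusted p = 0.00477), while VIM, a mesenchymal gene also listed, lay at 5866 to 6944 CPM and did not pass. Of 5 leukocyte genes, CD3E was at 0 and PTPRC had at most 1 count in any sample, while CD14, the most abundant, had 110, 113 and 76 reads in the VHL-KO samples against 58, 50 and 49 in VC. The leukocyte genes together reached 1.37 to 1.78 CPM in VC and 3.89 to 5.33 CPM in VHL-KO samples. The 3 endothelial genes together stayed at or below 0.168 CPM in VC and at 0.324 to 0.711 CPM in VHL-KO samples, with PECAM1 the most abundant and CDH5 and VWF at 5 counts or fewer. The part of these low signals in the results on the family was not tested.

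Of the 10 members, 2 were higher in VHL-KO than in VC cells, where 28.5% of all tested genes were called higher. Another 5 were lower, where 31.2% of all tested genes were called lower, and the other 3 did not pass an adjusted p of 0.05. Calls were common in both directions across all genes, and neither count is read as particular to the family. Both directions occurred among guardians and among BH3-only genes: BCL2L1 and BBC3 rose, while BCL2, MCL1, BAK1, BID and PMAIP1 fell. These 7 directions were the same under each scaling tried, although BID was not called with upper quartile factors. Values of the VC and VHL-KO samples did not overlap for 8 of the 10 members, against 64.7% of all tested genes. The median log2 fold change of the members was -0.16, beside -0.01 over all tested genes, and it was -0.09 without VHL-KO replicate 3, -0.05 with upper quartile factors and -0.35 with library size alone. In bulk RNA, fewer cells expressing a gene and less RNA per cell cannot be told apart.

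**Figure D1:**
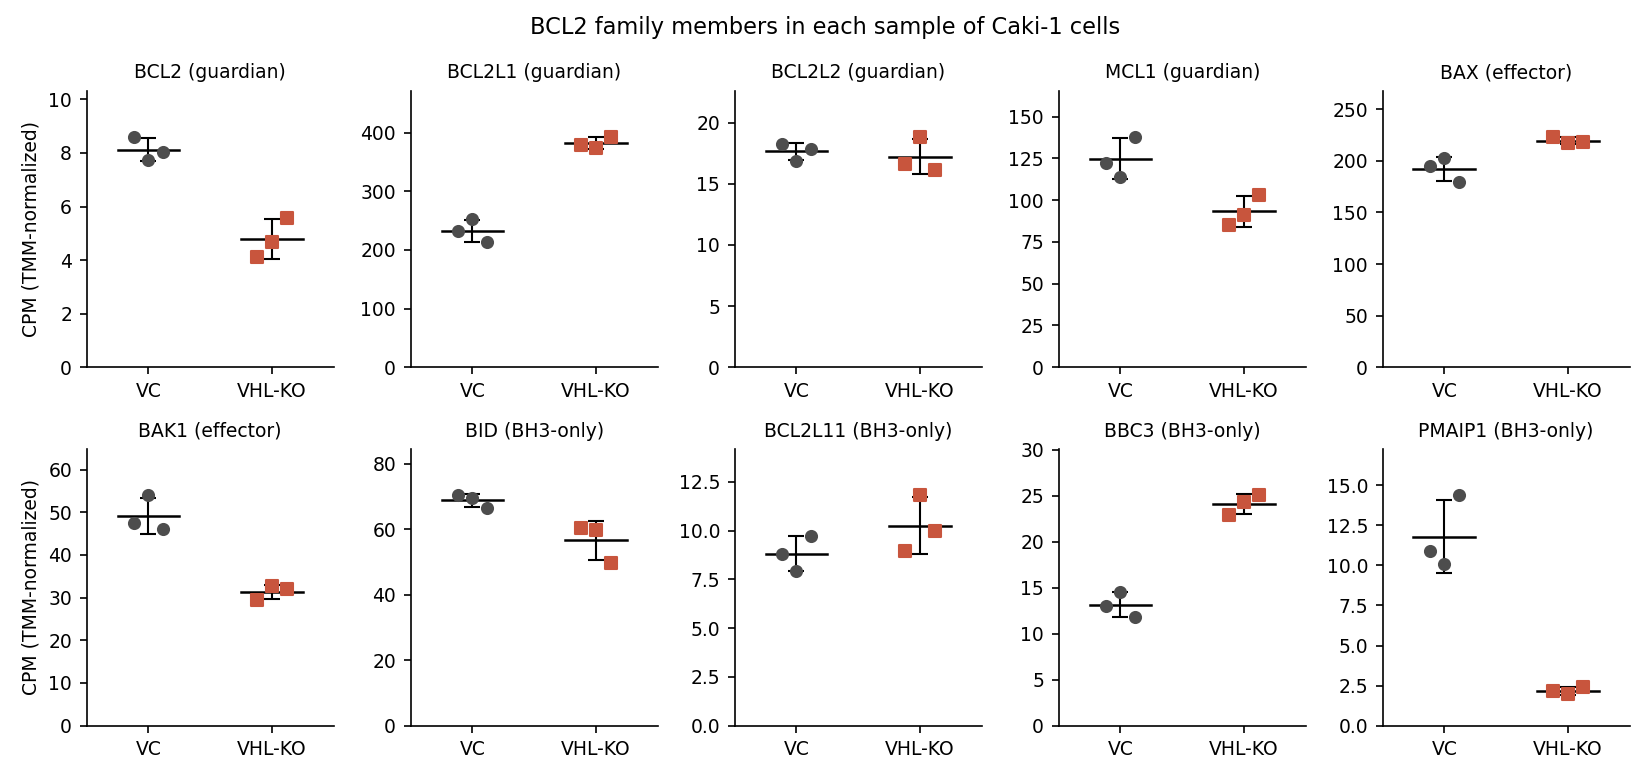
CPM, scaled by TMM factors, of each member in the 3 VC (circles) and 3 VHL-KO (squares) samples, with mean and SD as black bars and each axis starting at 0. The PMAIP1 samples sit between 10.1 and 14.4 CPM in VC and between 1.95 and 2.44 CPM in VHL-KO cells.

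PMAIP1 encodes NOXA, a BH3-only protein that binds MCL1 and is a known target of the stress response. Its log2 fold change was the largest of the members. It had 10.9, 10.1 and 14.4 CPM in VC samples and 2.17, 1.95 and 2.44 CPM in VHL-KO samples, from 373, 299 and 546 counts against 58, 42 and 52. The lowest VC sample was above the highest VHL-KO sample, and the spread within VC was wider than within VHL-KO cells. The log2 fold change was -2.43 ± 0.19 (SE; edgeR quasi-likelihood test, adjusted p = 1.2e-10), a level 18.5% of that in VC. PMAIP1 was the 1 member called at least 2-fold lower, a change called for 12.3% of all tested genes. Among the 10909 genes whose normalized counts averaged 100 or more, 59 (0.541%) had a more negative log2 fold change.

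The gene lies on the plus strand of chromosome 18 at chr18:59899996-59904305 (GENCODE on GRCh38), has 2 exons in its canonical transcript and shares no exonic base with another annotated gene. Its transcript is the poorest in G and C of the members, at 36.7% GC, and with offsets that remove each library's trend with GC content and length the log2 fold change was -2.14. The genes most alike in pattern, by the Euclidean distance of their log2 CPM deviations over the 6 samples, were BRIP1 (0.216), DIAPH3 (0.235) and NCAPG2 (0.242). BRIP1, for example, had 14.8, 11.1 and 17.6 CPM in VC and 2.62, 2.36 and 2.91 CPM in VHL-KO samples. As with PMAIP1, VC replicate 3 was the highest and VC replicate 2 the lowest of the VC samples.

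RefSeq promoter windows were matched for 8 of the 10 members, all but BCL2L2 and MCL1, and for BNIP3, a relative described further on. The 250 bases before each start site were searched on both strands. BID had 5 windows and BCL2L1 had 2, of which the one nearest the canonical start site was used. The windows of BCL2 and BCL2L1 lie wholly in annotated exons of these genes, and those of BAX, BAK1, BID and BBC3 partly. One motif was ACGTG, the usual core of the HIF response element, which overlaps the E-box CACGTG, also counted. Its variant core is GCGTG in the same element. The last motif, bound by CREB and ATF factors, was TGACGT. The windows of 3 genes are shown, in the direction of transcription and up to the first annotated exon of the gene, because PMAIP1 had the largest log2 fold change of the members, BAK1 also fell, and BNIP3 rose. Capitals mark these motifs or their reverse complements, and build GRCh38.p14 gives the positions chr18:59899746-59899995 (plus strand), chr6:33580294-33580526 (minus strand) and chr10:131981968-131982173 (minus strand).
PMAIP1: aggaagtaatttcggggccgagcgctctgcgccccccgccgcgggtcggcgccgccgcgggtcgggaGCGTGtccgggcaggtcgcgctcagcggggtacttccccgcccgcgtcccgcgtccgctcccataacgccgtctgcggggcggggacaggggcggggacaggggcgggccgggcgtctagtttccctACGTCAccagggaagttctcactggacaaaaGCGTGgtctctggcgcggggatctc
BAK1: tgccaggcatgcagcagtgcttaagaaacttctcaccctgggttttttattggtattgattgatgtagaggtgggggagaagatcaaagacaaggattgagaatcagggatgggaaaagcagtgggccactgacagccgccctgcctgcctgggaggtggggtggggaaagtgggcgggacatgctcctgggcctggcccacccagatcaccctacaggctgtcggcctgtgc
BNIP3: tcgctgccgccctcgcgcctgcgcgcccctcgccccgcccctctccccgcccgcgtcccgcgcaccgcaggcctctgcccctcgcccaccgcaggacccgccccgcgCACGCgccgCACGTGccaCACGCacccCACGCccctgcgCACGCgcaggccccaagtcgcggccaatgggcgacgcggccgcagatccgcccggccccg
Motifs were counted in the full 250 bases, of which the shown BAK1 and BNIP3 stretches are the 233 and 206 before the first exon. The PMAIP1 window held the variant HIF core at 2 places and the CREB and ATF motif at 1, the BAK1 window held none of these motifs, and the BNIP3 window held 5 separate stretches, 1 of them the E-box. The window of BAX held the E-box at 4 places. Either HIF core was present in 6 of the 8 members' windows and in 43.2% of all 35116 windows of this length. Of those windows, 18.5% held ACGTG, 32.2% held its variant, 7.1% held the CREB and ATF motif and 6.34% held the E-box. The start site of the only BBC3 window lies 1468 bases from that of the canonical transcript. A match describes the letters only, and binding was not measured.

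The other BH3-only genes moved less than PMAIP1, and in both directions. BBC3 encodes PUMA, which binds every guardian. It had 13.1, 14.5 and 11.8 CPM in VC samples and 22.9, 24.4 and 25.1 CPM in VHL-KO samples. Every VHL-KO sample lay above every VC sample. This gave a log2 fold change of 0.88 ± 0.13 (SE; edgeR quasi-likelihood test, adjusted p = 2.2e-06), or 1.84-fold. At 69.7% GC its canonical transcript is the richest in G and C of the members, and with GC and length offsets the value was 0.37, still called. BBC3 lies at chr19:47220822-47232766 on the minus strand.

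BID links death receptors to mitochondria once caspase-8 has cut it. It had 70.4, 69.6 and 66.6 CPM in VC samples and 60.3, 59.8 and 49.7 CPM in VHL-KO samples. The groups did not overlap, and VHL-KO replicate 3 stood lowest. The difference on the log2 scale was -0.28 ± 0.10 (SE; edgeR quasi-likelihood test, adjusted p = 0.0183). The call was lost without VHL-KO replicate 3 (-0.19, adjusted p = 0.127), without VC replicate 1 (-0.26, adjusted p = 0.0868) and with upper quartile factors (-0.17, adjusted p = 0.164). The value with GC and length offsets was -0.18, and BID (chr22:17734138-17774770, minus strand) shares no exonic base with another gene.

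BCL2L11 encodes BIM, which FOXO factors are known to induce. It had 8.82, 7.94 and 9.72 CPM in VC samples and 8.95, 11.8 and 9.99 CPM in VHL-KO samples. The groups overlapped, since VHL-KO replicate 1 lay below VC replicate 3. The log2 fold change was 0.21 ± 0.16 with a 95% interval from -0.12 to 0.54 (SE; edgeR quasi-likelihood test, adjusted p = 0.256). Offsets for GC content and length brought it past the threshold, at 0.41 (adjusted p = 0.00902), while library size alone gave 0.02 and leaving out VHL-KO replicate 2 gave 0.10. BCL2L11 (chr2:111119378-111168444, plus strand) shares 10.8% of its exonic bases with MIR4435-2HG on the opposite strand, a row with 520 to 653 counts per VC sample and 270 to 405 per VHL-KO sample. The source does not state whether counting used strand, so reads of the 2 genes cannot be told apart there.

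Guardians split as well. BCL2L1, which encodes the anti-apoptotic protein BCL-XL, had 232, 252 and 214 CPM in VC samples and 379, 373 and 393 CPM in VHL-KO samples. Every VHL-KO sample was above every VC sample, with a gap wider than the spread within either group. This gave a log2 fold change of 0.72 ± 0.09 (SE; edgeR quasi-likelihood test, adjusted p = 1.8e-07), or 1.64-fold, and it ranged from 0.53 to 0.83 over the 15 alternative settings. Of the 10909 more abundant genes, 15.1% had a higher log2 fold change. The gene (chr20:31664452-31723989, minus strand) shares 41.3% of its exonic bases with the antisense gene ABALON, whose own row held 22 counts or fewer per sample. Had counting ignored strand, reads there could have been left out of the BCL2L1 row, and its level and share of the family in TPM carry this uncertainty. The short pro-apoptotic isoform BCL-XS comes from the same gene, and counts per gene do not separate the isoforms.

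BCL2, the founding guardian, is the target of the drug venetoclax. It had 8.61, 7.74 and 8.03 CPM in VC samples and 4.12, 4.68 and 5.58 CPM in VHL-KO samples. The groups did not overlap. The difference on the log2 scale was -0.77 ± 0.17 (SE; edgeR quasi-likelihood test, adjusted p = 0.00052), from 230 to 305 counts in VC and 101 to 119 in VHL-KO samples. BCL2 lies at chr18:63123346-63320128 on the minus strand and shares no exonic base with another gene.

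MCL1, a short-lived guardian and the main partner of NOXA, had 122, 114 and 138 CPM in VC samples and 85.3, 91.3 and 103 CPM in VHL-KO samples. Its highest VHL-KO value lay below its lowest VC value. The log2 fold change was -0.42 ± 0.10 (SE; edgeR quasi-likelihood test, adjusted p = 0.00081), and -0.21 with GC and length offsets, still called. MCL1 (chr1:150560895-150579738, minus strand) shares 5.3% of its exonic bases with ADAMTSL4-AS1 on the same strand, which had 11 counts or fewer per sample.

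BCL2L2, which encodes BCL-W, had 18.2, 16.9 and 17.9 CPM in VC samples and 16.7, 18.9 and 16.1 CPM in VHL-KO samples. The groups overlapped, with both the highest and the lowest value in VHL-KO samples. This gave a log2 fold change of -0.04 with a 95% interval from -0.30 to 0.22 (edgeR quasi-likelihood test, adjusted p = 0.811), and its sign turned with upper quartile factors (0.075). With 1 sample left out it lay between -0.105 (VHL-KO replicate 2 left out) and 0.009 (VHL-KO replicate 3 left out). BCL2L2 (chr14:23298790-23311751, plus strand) shares 16.8% of its exonic bases with the readthrough gene BCL2L2-PABPN1, whose row had 9 counts or fewer per sample, and 8.0% with HOMEZ (224 to 449 counts) and PPP1R3E (114 to 296 counts) on the opposite strand.

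The effectors differed from each other. BAK1, which resides in the outer membrane and is held by MCL1 and BCL-XL, had 47.5, 54.0 and 46.1 CPM in VC samples and 29.5, 32.7 and 31.9 CPM in VHL-KO samples. The groups were far apart relative to their spread. The difference on the log2 scale was -0.65 ± 0.11 (SE; edgeR quasi-likelihood test, adjusted p = 1.2e-05), and it was larger with GC and length offsets, at -1.08. BAK1 (chr6:33572547-33580293, minus strand) has annotated pseudogenes, of which BAK1P1 had 10 counts or fewer per sample and BAK1P2 had 0.

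BAX moves from the cytosol to mitochondria on activation. It had 195, 202 and 179.5 CPM in VC samples and 224, 217 and 218 CPM in VHL-KO samples. Every VHL-KO sample was above every VC sample, by a margin smaller than the range of the VC samples. The log2 fold change was 0.19 ± 0.09 with a 95% interval from 0.01 to 0.37 (SE; edgeR quasi-likelihood test, adjusted p = 0.0594). The direction depended on the correction: it was called lower with GC and length offsets (-0.26, adjusted p = 3.93e-04), was 0.00 with library size alone, and was called higher in 5 other settings, up to 0.30 with upper quartile factors (adjusted p = 0.00718). The canonical transcript of BAX (chr19:48954815-48961798, plus strand) is 60.8% GC.

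**Figure D2:**
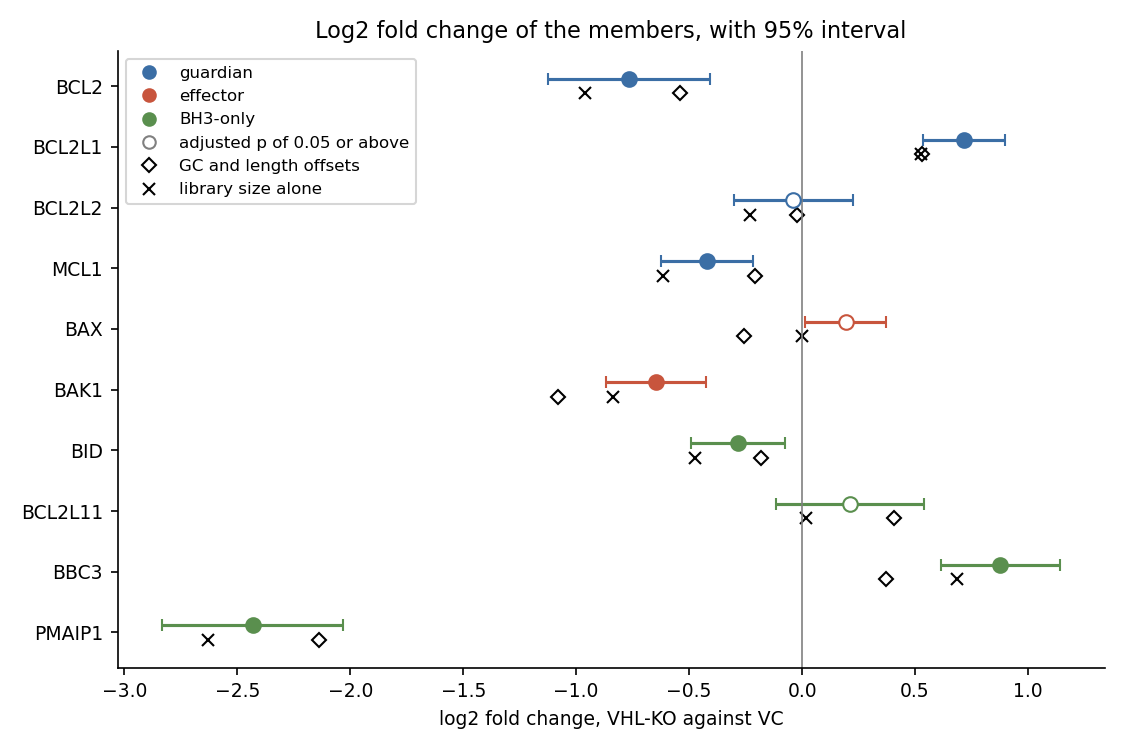
Log2 fold change of each member, VHL-KO against VC, with its 95% interval (circles, open where the adjusted p was 0.05 or above), with GC and length offsets (diamonds) and with library size alone (crosses). BAX lies at 0.19 and moves to -0.26 with GC and length offsets and to 0.00 with library size alone, while PMAIP1 stays at or below -2.14 in all 3.

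Scaling by library size alone moved the median over all tested genes to -0.20, and upper quartile factors moved it to 0.10. Relative to that median, BAX lay at 0.20 in both, and BID at -0.27 in both. With GC and length offsets, 3 members were called higher and 6 lower, where 28.4% and 31.7% of all tested genes were.

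Levels were compared between genes as TPM (transcripts-per-million), which divides counts by the length of the gene's exons. TPM was read within each group only, because it sums to the same total in each sample and is not scaled by TMM factors. In VC cells BAX was the most abundant member, at 254 ± 11.7 TPM (mean ± SD, n = 3), followed by BCL2L1 at 189 ± 13.2 TPM. BAK1 (76.0 ± 5.75), MCL1 (68.6 ± 7.84) and BID (53.2 ± 0.79) came next in TPM, and the samples of BAK1 and MCL1 overlapped. PMAIP1 at 18.5 ± 3.89 TPM, BBC3 at 14.1 ± 1.27 and BCL2L2 at 12.5 ± 0.58 formed a middle range whose neighbours did not overlap, though the lowest PMAIP1 sample (15.6 TPM) and the highest BBC3 sample (15.4 TPM) were close, as were the lowest BBC3 (12.9 TPM) and highest BCL2L2 (12.8 TPM) samples. BCL2L11 (4.48 ± 0.52 TPM) and BCL2 (2.20 ± 0.12 TPM) were the lowest.

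In VHL-KO cells BCL2L1 (232 ± 13.2 TPM) and BAX (216 ± 5.88 TPM) shared the top of the order with overlapping samples. MCL1 (38.2 ± 5.08), BAK1 (36.2 ± 3.29) and BID (32.5 ± 2.83) followed in TPM, each overlapping its neighbour. BBC3 was at 19.3 ± 1.66 TPM, above BCL2L2 at 9.06 ± 0.92 and BCL2L11 at 3.88 ± 0.66. PMAIP1, the sixth of the members in VC cells, was the ninth in VHL-KO cells at 2.55 ± 0.33 TPM, above BCL2 at 0.97 ± 0.18. With the longest coding transcript as the length, BAX was above BCL2L1 in both groups, MCL1 and BID were above BAK1 in both, and the mean of BBC3 was above that of PMAIP1 in VC cells too.

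**Figure D3:**
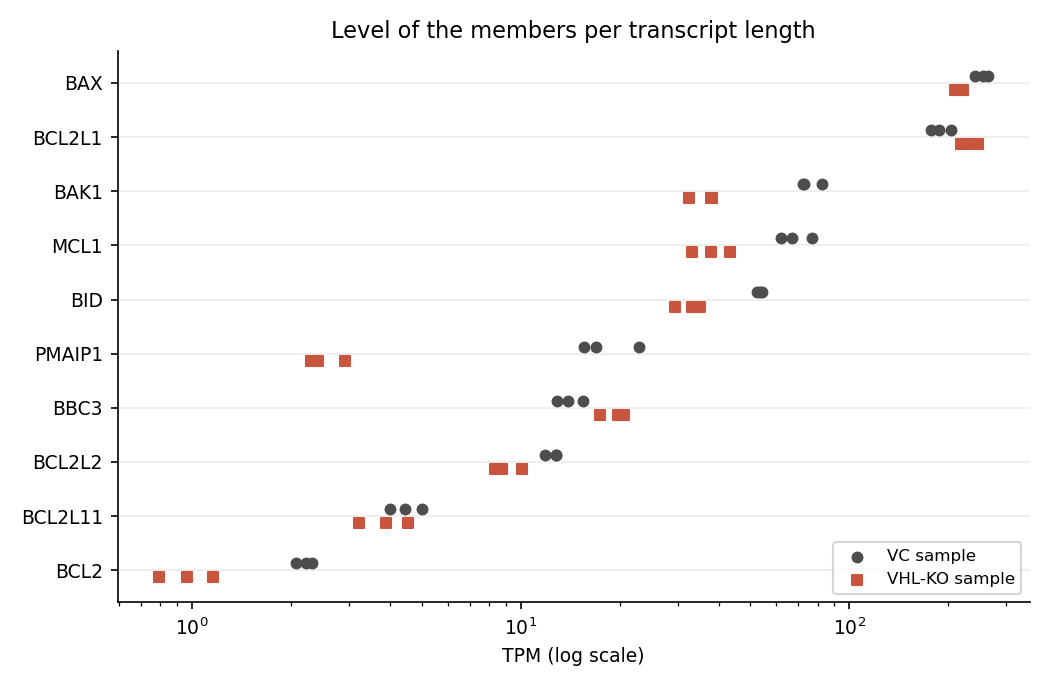
TPM on a log axis of each member in each VC (circles) and VHL-KO (squares) sample, ordered by the mean in VC. Genes are compared within a group only, since TPM is not scaled by TMM factors. BAX and BCL2L1 lie at 177 TPM or more in all 6 samples, and PMAIP1 lies between 15.6 and 22.9 TPM in VC and between 2.31 and 2.93 TPM in VHL-KO samples.

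Ratios within a sample do not depend on scaling between samples, but they do depend on the lengths used and on differences in GC content between the genes. The ratio of BBC3 to PMAIP1 in TPM was 0.821, 0.992 and 0.564 in the VC samples, and it was 7.24, 8.60 and 7.06 in the VHL-KO samples. With the longest coding transcript as the length the ratio was 1.23, 1.49 and 0.846 in the VC samples, with a mean of 11.4 in VHL-KO cells, so which of these BH3-only genes was the more abundant in VC depended on the length used, while BBC3 was above PMAIP1 in VHL-KO cells with either. MCL1 exceeded its partner PMAIP1 by 3.37-fold to 3.97-fold in VC and by 13.8-fold to 16.5-fold in VHL-KO samples. BCL2L1 exceeded MCL1 by 2.29-fold to 3.29-fold in VC and by 5.66-fold to 6.59-fold in VHL-KO samples. BAX exceeded BAK1 by 3.20-fold to 3.51-fold in VC and by 5.68-fold to 6.47-fold in VHL-KO samples, and with the longest coding transcript the means were 6.38-fold and 11.4-fold. For each of these 4 ratios the groups lay apart. By the fitted log2 fold changes, the ratio of BBC3 to PMAIP1 differed 9.91-fold between the groups and 5.71-fold with GC and length offsets, and that of BCL2L1 to MCL1 differed 2.20-fold and 1.67-fold.

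By class, guardians made up 39.0% to 39.8% of the summed TPM of the 10 members in VC samples and 46.8% to 48.6% in VHL-KO samples. BCL2L1 alone took 27.3 ± 1.13% in VC and 39.2 ± 0.69% in VHL-KO cells (SD, n = 3). Effectors took 46.4% to 48.6% in VC and 42.1% to 43.2% in VHL-KO samples, and BH3-only genes 12.4% to 13.8% and 9.26% to 10.3%. With the longest coding transcript, guardians took 34.8% in VC and 40.8% in VHL-KO cells and effectors 51.7% and 48.5% (means), so guardians stood above effectors in VHL-KO cells with 1 of the 2 lengths only. These shares describe RNA, not protein, and were not tested.

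Relatives of the members were counted apart. Of 13 other BCL2 family genes, 10 were tested, 5 of them higher and 2 lower, where 28.5% of all tested genes were higher and 31.2% lower. BNIP3L and BNIP3, mitophagy receptors and known HIF targets, were among the higher ones. BNIP3L had 24.2, 24.5 and 27.5 CPM in VC and 73.3, 73.0 and 72.8 CPM in VHL-KO samples, a log2 fold change of 1.52 ± 0.10 (SE; edgeR quasi-likelihood test, adjusted p = 5.7e-12). BNIP3 had 66.1, 73.1 and 73.8 CPM in VC and 164, 170.3 and 166 CPM in VHL-KO samples, a log2 fold change of 1.23 ± 0.09 (adjusted p = 3.2e-11 in the same test). Both genes had groups far apart. BMF, a BH3-only gene, rose by 1.15 ± 0.20 on the log2 scale (SE), and the BH3-only gene BAD (0.98) and the effector-like gene BOK (0.70) were also higher. These were reduced to 0.32 for BAD and 0.17 for BOK with GC and length offsets, and 23.7% of the exonic bases of BAD lie opposite GPR137.

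BIK, another BH3-only gene, fell by 1.59 ± 0.47 on the log2 scale (SE), from 26 to 43 counts in VC and 4 to 13 in VHL-KO samples, and its call was lost without VC replicate 2 (-1.28, adjusted p = 0.0538). BCL2L12 was also lower, with 25.9% of its exonic bases opposite IRF3. HRK, BCL2L13 and BCL2L15 did not pass. BCL2A1, BCL2L10 and BCL2L14 were not tested, with 2, 1 and 0 counts as their highest, and a count of 0 allows up to 3 counts, or 0.079 to 0.141 CPM by sample.

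**Figure D4:**
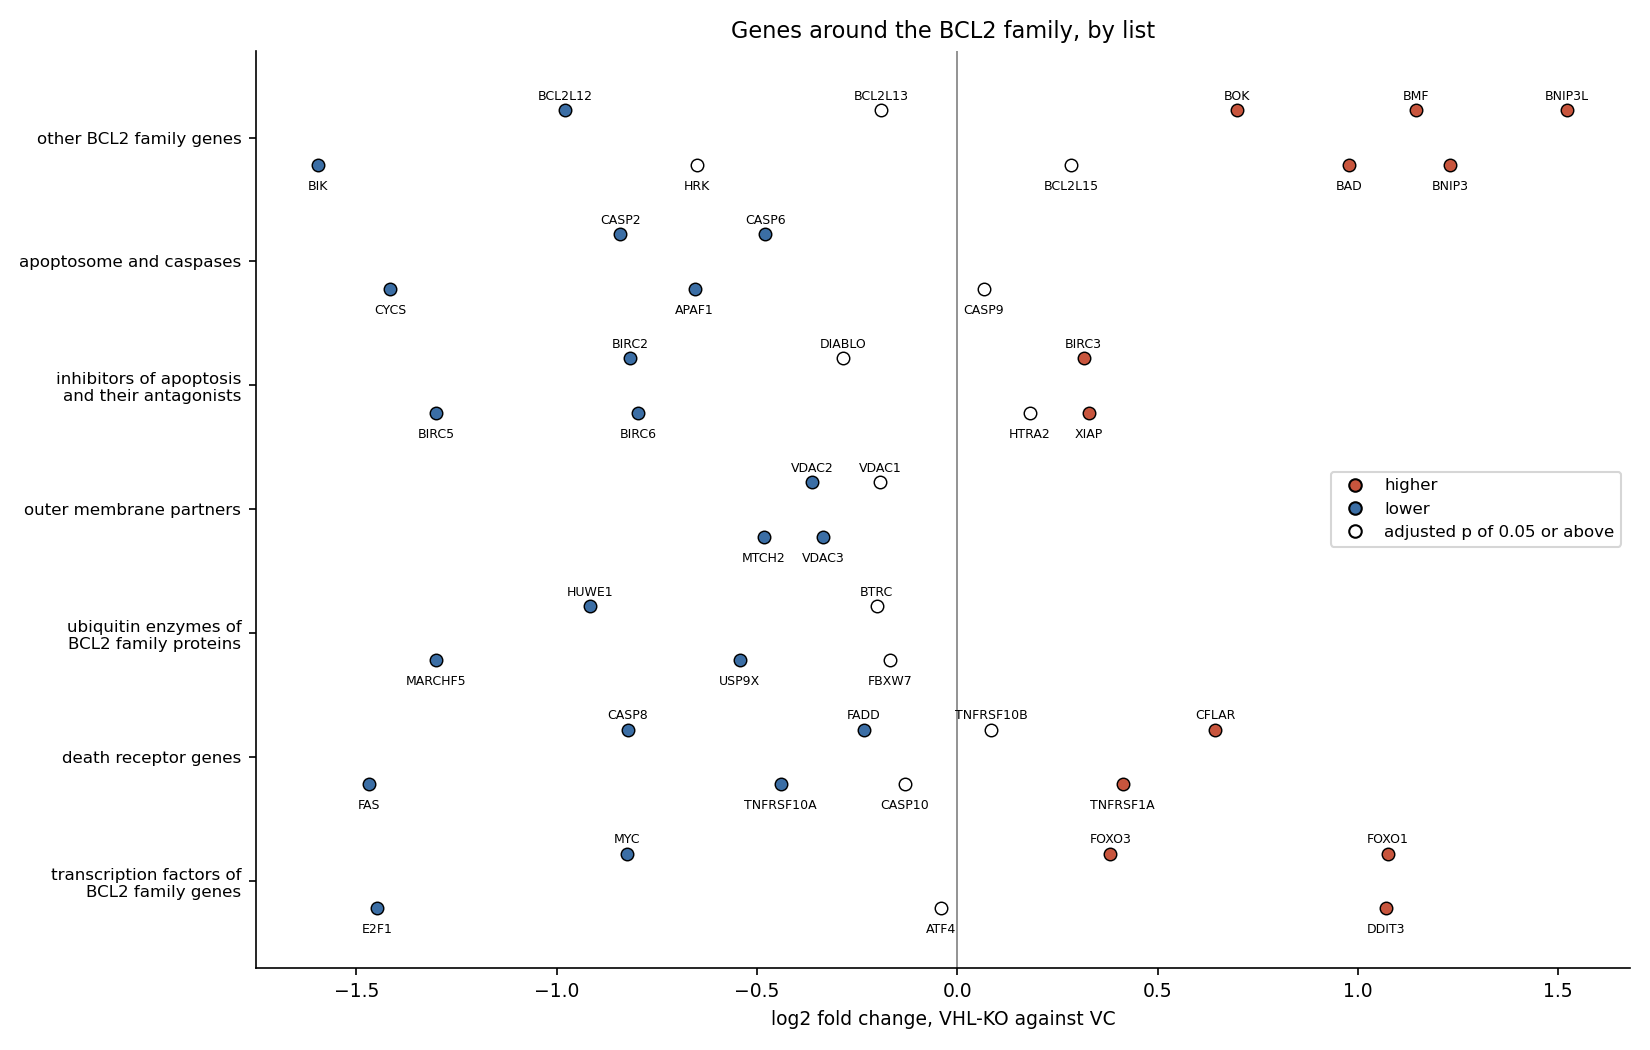
Log2 fold change, VHL-KO against VC, of each tested gene in the 7 lists around the family, filled where it was called higher or lower and open where the adjusted p was 0.05 or above. In the list of apoptosome and caspases, 4 of 5 genes lie to the left of 0 as called lower, and CASP9 is open. Over all tested genes, 31.2% were called lower.

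Downstream of the pores, cytochrome c and APAF1 build the apoptosome that activates caspase-9. The list of apoptosome and caspases also holds CASP2 and CASP6. Of its 5 genes, 4 were lower and CASP9 did not pass, where 31.2% of all tested genes were lower. The median log2 fold change of the list was -0.655, and -0.39 with GC and length offsets. CYCS, which encodes cytochrome c, went from 164 ± 14.2 to 61.4 ± 2.67 CPM (mean ± SD, n = 3), a log2 fold change of -1.42 ± 0.10 (SE). CASP2 fell to 55.8% of its VC level, APAF1 to 63.5% and CASP6 to 71.8%. With GC and length offsets APAF1 had a log2 fold change of -0.29, still called.

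Inhibitors of apoptosis bind caspases or mark them for degradation, and DIABLO and HTRA2 counter them. Of these 7 genes, 3 were lower and 2 higher, where 31.2% of all tested genes were lower and 28.5% higher. BIRC5, which encodes survivin, also a mitotic protein, went from 368 ± 25.1 to 149.5 ± 7.61 CPM (mean ± SD, n = 3), a log2 fold change of -1.30. BIRC2 was at -0.82, BIRC6 at -0.80 and XIAP at 0.33, and BIRC3 was higher at 0.32. DIABLO, with 26 to 89 counts per sample, and HTRA2 did not pass. DIABLO shares 31.5% of its exonic bases with genes on its own strand, and 32.3% of those of HTRA2 lie opposite AUP1 and LOXL3. With GC and length offsets BIRC2 was at -0.33, BIRC6 at -0.49, XIAP at 0.78 and BIRC3 at 0.80. BIRC2 was at -0.54 without VC replicate 3, still called. The XIAP call was lost without VHL-KO replicate 2 (0.22, adjusted p = 0.149) and with library size alone, and the BIRC3 call with library size alone and without any 1 of VHL-KO replicate 1 (0.28), VHL-KO replicate 2 (0.29) and VC replicate 2 (0.18), at adjusted p-values of 0.111 to 0.468.

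Of 4 outer membrane partners of BAX, BAK1 and BID, 3 were lower by small amounts, where 31.2% of all tested genes were lower. The median of the 4 on the log2 scale was -0.35, or -0.175 with GC and length offsets. The lower genes were MTCH2 (-0.48), a partner of BID, VDAC2 (-0.36), which holds BAK1 at the membrane, and VDAC3 (-0.33). VDAC1 was at -0.19 and did not pass. VDAC3 was not called with GC and length offsets (-0.14, adjusted p = 0.0624) or upper quartile factors, and MTCH2 was at -0.21 and VDAC2 at -0.24 with the offsets.

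Of 5 enzymes that add ubiquitin to family proteins or remove it, 3 were lower, where 31.2% of all tested genes were lower. BTRC and FBXW7 did not pass. The median of the 5 enzymes was -0.54 on the log2 scale, and -0.15 with GC and length offsets. MARCHF5, a ubiquitin ligase of the outer membrane that is known to act on MCL1 and NOXA, went from 20.5 ± 1.68 to 8.28 ± 1.04 CPM (mean ± SD, n = 3), a log2 fold change of -1.30. HUWE1, a ligase for MCL1, was at -0.92, and USP9X, which removes ubiquitin from MCL1, at -0.54. With GC and length offsets MARCHF5 was at -0.85 and USP9X at -0.15, both still called.

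Death receptor genes, which feed into mitochondria through BID, were mixed, with 4 of 8 lower and 2 higher. Of all tested genes, 31.2% were lower and 28.5% higher. FAS went from 20.6 ± 5.04 to 7.46 ± 0.33 CPM (mean ± SD, n = 3), a log2 fold change of -1.47. CASP8, the protease that cuts BID, was at -0.82, TNFRSF10A at -0.44, and CFLAR, which blocks caspase-8, at 0.64. TNFRSF1A was higher. FADD was lower at -0.23, was at -0.71 with GC and length offsets (adjusted p = 7.68e-09), and lost its call in 8 of 15 alternative settings, among them those that left out VHL-KO replicate 1 (-0.23), VHL-KO replicate 2 (-0.20), VC replicate 1 (-0.26) and VC replicate 2 (-0.16), while TNFRSF10B and CASP10 did not pass. Of the exonic bases of FADD, 59.2% lie opposite another annotated gene, and of those of TNFRSF10A 16.7% lie opposite TNFRSF10A-AS1 and TNFRSF10A-DT. Had counting ignored strand, these rows could hold reads of both strands or lack reads there. With GC and length offsets FAS was at -0.95 and CASP8 at -0.45, both still called.

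Of the transcription factors known to drive family genes, 6 of 7 were tested, 3 of them higher and 2 lower. Over all tested genes, 28.5% were higher and 31.2% lower. E2F1 went from 124 ± 10.8 to 45.5 ± 4.73 CPM (mean ± SD, n = 3), a log2 fold change of -1.45. FOXO1 was at 1.07 and DDIT3, which encodes CHOP, at 1.07, while MYC was at -0.82. FOXO3 was higher, and lost its call without VC replicate 1 (0.32, adjusted p = 0.0906), without VHL-KO replicate 3 (0.32, adjusted p = 0.0667) and with library size alone (0.19). MARS1 and MBD6 lie opposite 31.6% of the exonic bases of DDIT3. With a gene on its own strand, DDIT3 shares 8.0% of its exonic bases and FOXO1 22.7%. ATF4 did not pass, but was called lower with GC and length offsets, where 3 of the 6 genes were higher and 3 lower. It was also called lower with library size alone. TP73 had 0 counts in each sample.

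Over the 7 lists, 12 of 45 tested genes were higher, 21 were lower and 12 were not called, where 28.5% of all tested genes were higher and 31.2% lower. The lists were not drawn at random and no test was made of these counts, so nothing is read from the difference.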

How the data were processed

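Total RNA of 3 VC and 3 VHL-KO samples of Caki-1 cells was extracted by the authors with Trizol, and libraries were made and sequenced at a core facility. The authors trimmed reads with Trim Galore and cutadapt, aligned them to GRCh38.p13 with STAR, used SAMtools, and deposited raw counts of reads per gene made with HTSeq. Strandedness, counting mode and tool versions are not stated. Samples were grouped by their labels.

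Counts were fitted with edgeR 4.0.16 in R 4.3.3, with TMM factors and a two-sided quasi-likelihood F test. Benjamini-Hochberg adjustment covered the 17401 genes that reached 10 reads in 1 or more samples, with a threshold of 0.05. The fit was also run on simulated counts with known changes. These held no trend with GC content, so the run does not test the choice of scaling or offsets. The standard error is the absolute log2 fold change divided by the root of F. TPM used exon lengths of GENCODE release 44. Alternatives were DESeq2 1.42.0, other scalings and filters, a replicate block, each sample left out, and offsets for GC content and length (natural splines with 5 degrees of freedom), which would take out biology that tracks GC content as well. Settings named without a tool are edgeR fits. Floors cover counting error only.

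The members and the lists, written from general knowledge, were chosen with earlier results of these data known. Some genes of the lists are not reported here, and counts and medians of lists leave them out. The text names all members and, from lists with more than 4 tested genes, gives values for the 4 largest log2 fold changes past the threshold, plus genes a statement rests on. Figures were drawn with matplotlib 3.10.9.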

Additional observations from a re-analysis of the deposited data

How the results depend on the processing

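The directions of BCL2, BCL2L1, MCL1, BAK1, BBC3 and PMAIP1 and their calls held in all 15 alternative settings. BAX, not called at 0.19, was called higher with DESeq2 (0.217), relative log expression factors (0.217), upper quartile factors (0.304) and at least 10 reads in every sample (0.224), and turned lower with GC and length offsets (-0.259), alone or with the replicate block (-0.258). Leaving out 1 sample gave 0.162 to 0.249, called without VC replicate 2. BID lost its call with upper quartile factors (-0.171), and ranged from -0.324 to -0.194 with 1 sample left out. BCL2L11 was called with GC and length offsets (0.406), also with the replicate block (0.401). BCL2L2 turned positive with upper quartile factors (0.075), and ranged from -0.105 to 0.009 with 1 sample left out. For each the cause was not tested.

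The replicate block alone gave 10284 called genes beside 10394, and 7 members called in both. Same-numbered samples had correlations of 0.205, -0.100 and 0.0791 over 10893 genes, and not every sample correlated best with its own number, so the numbers were not taken to pair samples. Between 9215 and 10502 genes were called over the alternatives. With few counts, as for PMAIP1 in VHL-KO cells (42 to 58) and BIK, a fold is less precise than for BAX or BCL2L1. With the longest coding transcript, TPM levels moved but BAX and BCL2L1 stayed the most abundant members.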
